A study of Homo sapiens with 12 samples.

Results

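The cells described here are the SOX2-negative cells of human pluripotent stem cell colonies treated with WNT3A and FGF8, compared across all genes with cells kept in the basal medium N2B27. They comprise 5 libraries sorted as SOX2-negative and 2 control libraries, 7 of the 12 libraries of the series, and were taken by the column names of the deposited count table. The other 5 libraries are the SOX2-positive cells of the same treated colonies. The study, by its title, concerns how Nodal made by the cells themselves changes what Wnt does to colonies of confined shape. ESI017, a human embryonic stem cell line carrying a fluorescent SOX2::mCitrine reporter, was grown for 3 days as micropatterned colonies, that is, on coverslips that limit the cells to printed areas. Control colonies received N2B27 alone (2 libraries). Treated colonies received N2B27 with 200 ng/ml FGF8 and with WNT3A at 100 ng/ml (2 SOX2-negative libraries), 300 ng/ml (1 library) or 1000 ng/ml (2 libraries), and were dissociated and sorted by the reporter. All libraries come from this single cell line, so the p-values below measure the spread between libraries of it and not between lines. In the comparison with doses pooled, differences between the doses count as part of that spread. The titles of the control libraries name no gate, so the treatment and the sort cannot be told apart in this comparison.

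In the embryo, ectoderm that is shielded from Wnt and Nodal signals takes an anterior fate and gives rise to the forebrain, whereas Wnt and Nodal together induce the primitive streak. Streak cells switch on T-box factors such as EOMES and Brachyury (TBXT), leave the epithelium and form mesendoderm, the common source of definitive endoderm and mesoderm. SOX2 is kept in pluripotent and neural cells, and SOX17, FOXA2 and the GATA factors mark the endoderm that forms as it is lost.

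The 7 libraries held 16474799 to 28078923 counts assigned to genes. Values are CPM, counts scaled to a common library total, and are not corrected for gene length, so they are compared between libraries and not between genes. Values of the SOX2-negative libraries are listed in the order WNT3A 100 ng/ml replicates 1 and 2, 300 ng/ml, and 1000 ng/ml replicates 1 and 2, and where values are joined by "against" the 2 controls come first. On the first principal component, with 56.5% of the variance over 17047 genes, the controls lay at -115.9 and -122.6 and the SOX2-negative libraries between 40.56 and 52.36. The second component (21.7%) set 1 library apart: WNT3A 100 SOX2-negative replicate 2 lay at -106.7, and the other 4 SOX2-negative libraries between 5.171 and 49.77. In that library 2641 of 11781 genes lay more than 2-fold from the mean of the other SOX2-negative libraries, and the deviation of a gene followed its GC content (Spearman's rho 0.66 across genes, which are not independent) and transcript length (rho -0.53). In WNT3A 1000 SOX2-negative replicate 2, 578 genes lay more than 2-fold off, and the deviation over all 11781 genes had the opposite signs (GC content -0.71, length 0.47). The other 3 SOX2-negative libraries had 41 to 151 such genes and the same signs as the latter, with a rho of -0.32, -0.32 and -0.16 for GC content and 0.15, 0.45 and 0.22 for length in WNT3A 100 replicate 1, 300 and 1000 replicate 1. Each library was set against the mean of the others, WNT3A 100 replicate 2 among them. Opposite signs in the rest therefore follow in part from that library and show no trend of their own. Counts of calls are also given without WNT3A 100 SOX2-negative replicate 2. The part of GC content and length in any result was not tested.

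SOX2 itself, on which the cells were sorted, was measured at 652 and 676 CPM in the 2 controls and at 5.98, 3.20, 5.51, 5.21 and 1.85 CPM in the SOX2-negative libraries (gene at chromosome 3, 181711924 to 181714436, GRCh38). The levels do not overlap, and since the sort selected them they are a check of the labels and not a result. Then 4 genes that mark the states named in the comparison were read in every library. SOX17, a transcription factor of endoderm, had 0 counts in both controls and 493, 827, 532, 503 and 340.2 CPM in the SOX2-negative libraries, at least 8446-fold higher against a limit of 3 counts over the controls (adjusted p = 3.2e-05, edgeR's quasi-likelihood test with Benjamini-Hochberg adjustment, as for every adjusted p below). FOXA2, a forkhead factor of endoderm and node (chromosome 20, 22581005 to 22585455), had 3 counts over both controls, 0.152 and 0 CPM, and 219, 270.5, 198, 168 and 126 CPM in the SOX2-negative libraries, a ratio of 3075 (95% counting interval 1052 to 14913) with an adjusted p of 3.8e-05. Both genes were therefore near the limit of detection in every control and present in every SOX2-negative library. GATA4, a zinc finger factor of endoderm and heart mesoderm, was at 0 and 0.146 CPM in the controls and 149, 111, 206, 235 and 162 CPM in the SOX2-negative libraries (log2 fold change 10.90 ± 0.70 (SE), adjusted p = 3.8e-05). FEZF1, a zinc finger repressor of the forebrain (chromosome 7, 122301394 to 122310691), ran the other way, with 451 and 606 CPM in the controls and 2.09, 2.48, 1.82, 0.904 and 0.783 CPM in the SOX2-negative libraries (-8.37 ± 0.41 (SE), adjusted p = 1.7e-05). For all 4 genes the groups were separated without overlap, in the direction that the names anterior ectoderm (control) and mesendoderm (SOX2-negative) call for. SOX17, FOXA2 and GATA4 passed the filter on low counts through the SOX2-negative libraries alone. Their direction was thereby fixed, so their levels are a description and no support for the names. As these are bulk samples, fewer cells of a type and less RNA per cell cannot be told apart, here and below.

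**Figure D1:**
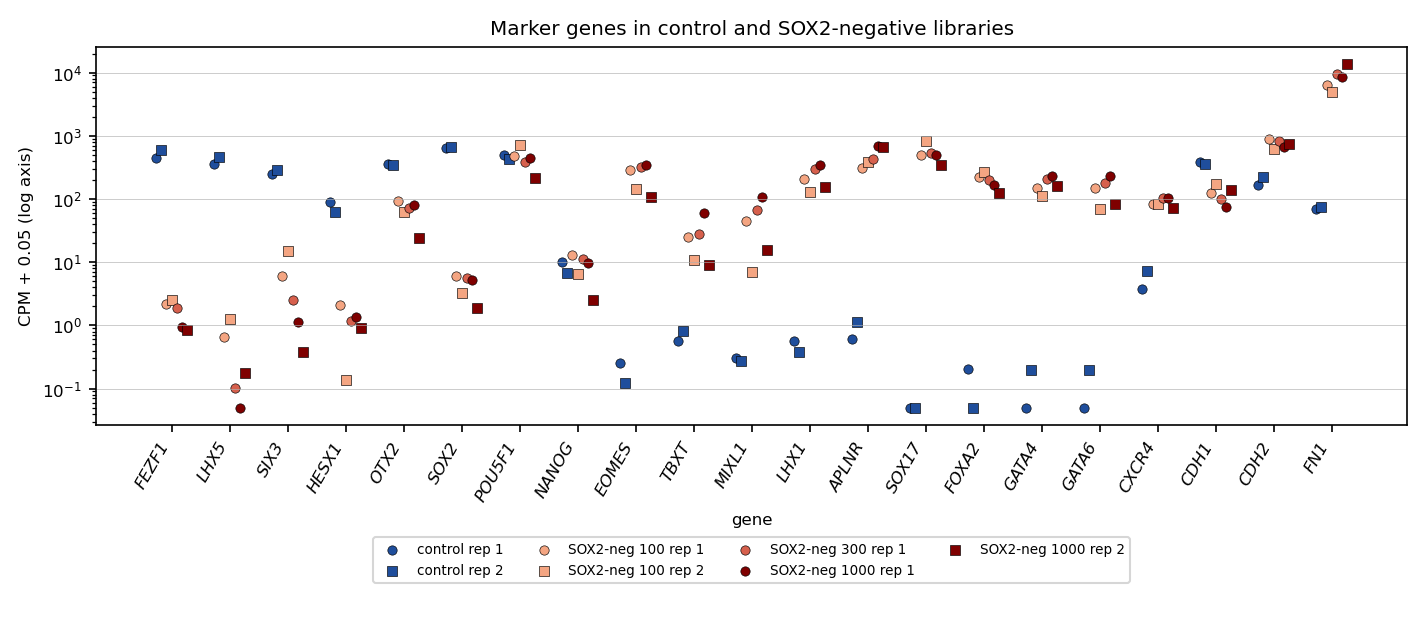
Level of each of 21 marker genes in the 7 libraries, as CPM with 0.05 added on a log axis, with 1 point per library and the controls and doses in different colours. Endoderm markers such as SOX17 lie near the bottom of the axis in both controls, and anterior markers such as FEZF1 lie far higher there than in any SOX2-negative library.

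Of 15779 genes tested, 3192 (20.2%) differed between the SOX2-negative and control libraries at an adjusted p under 0.05. Of these, 1851 (11.7% of the genes tested) were higher and 1341 (8.5%) lower in the SOX2-negative cells, and the median log2 fold change over all tested genes was 0.04. Without overlap between the groups stood 1848 of the 1851 and 1340 of the 1341, beside 3414 (21.6%) and 3187 (20.2%) of all genes tested. The median absolute log2 fold change was 2.03 among the genes called higher and 1.42 among those called lower. A gene with no counts or only a few in one group passed the filter on low counts through the other group alone. Its direction was thereby fixed, here and in the lists below, as for EOMES, MIXL1, EVX1, GATA6, FOXA1 and HNF4A. Calls of such genes are a description. Each list count below is to be read beside 11.7% higher and 8.5% lower of all genes tested. The lists were chosen with earlier results of these data known, so their counts describe and are no independent support. A log2 fold change over 5 was fitted for 224 genes called higher and for 77 called lower. Only 2 controls carry the other side of every comparison: 1226 genes were called without control replicate 1 and 1107 without control replicate 2, where the lone control is assumed to vary like the other libraries. Without WNT3A 100 SOX2-negative replicate 2, 6082 were called (3292 higher, 21%, and 2790 lower, 17.8%), among them 3182 of the 3192, each in the same direction.

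**Figure D2:**
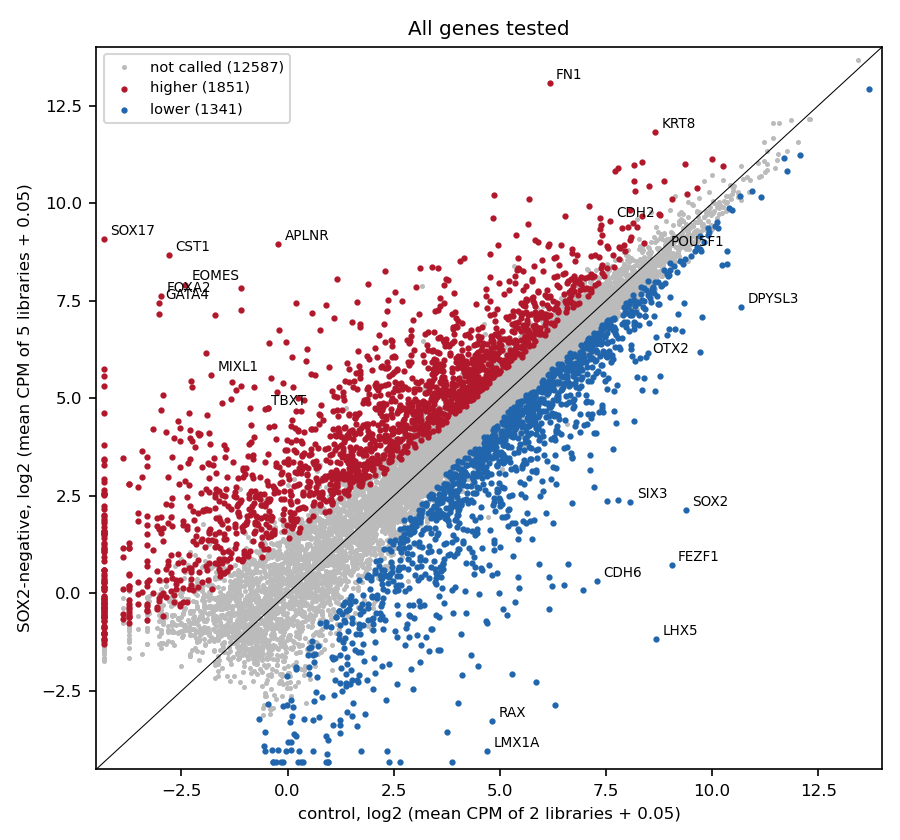
Mean level of each tested gene in the 5 SOX2-negative libraries (vertical axis) against its mean in the 2 controls (horizontal axis), both as log2 of CPM with 0.05 added. The 1851 genes called higher lie above the diagonal and reach furthest from it at low control levels, and the 1341 called lower lie below it.

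The largest increases by fold were in genes of the endoderm and its derivatives together with a few genes known from other tissues. Beside SOX17, FOXA2 and GATA4 they included MNX1, a homeobox factor of pancreas and motor neurons (no counts in the controls and 5.27 to 22.8 CPM in the SOX2-negative libraries, at least 216-fold higher), and CST1, which encodes the secreted protease inhibitor cystatin SN (0.0366 to 0.152 against 186 to 961 CPM). RUNX1, known for its role in blood formation, had no counts in the controls and 66.5, 22.0, 54.0, 37.0 and 18.5 CPM in the SOX2-negative libraries (at least 621-fold higher), and MOBP, a gene of myelin, none and 64.5, 51.5, 48.1, 31.4 and 39.9 CPM (at least 737-fold higher). All 4 genes were present in each SOX2-negative library and near or at 0 in each control. The rule that named them required that the groups do not overlap. By gain in CPM, which is not corrected for length, FN1, which encodes fibronectin, came first (69.7 and 74.6 CPM in the controls, 6306, 4977, 9572, 8614 and 13577 CPM in the SOX2-negative libraries) and KRT8, a keratin of simple epithelia, next. KRT8 stood at 369 and 441 CPM in the controls and at 3262, 6398, 3145, 2988 and 2271 CPM in the SOX2-negative libraries, with WNT3A 100 replicate 2 far above the rest. FSCN1, which encodes the actin bundler fascin (2.68 ± 0.26 (SE), adjusted p = 0.00024), the glucose transporter gene SLC2A3 (2.82 ± 0.24 (SE), adjusted p = 0.00013) and FBN2, for the microfibril protein fibrillin-2 (229.7 and 209 against 1416, 821, 2254, 2126 and 2959.6 CPM), followed, and then KRT18, the partner keratin of KRT8, at 196 and 220.2 against 1760, 3036, 1687, 1592 and 1062 CPM. Reads of SLC2A3 and its near copy SLC2A14, or of KRT8 and KRT18 and their many processed copies, may not be fully assigned. FBN2 lost its call without control replicate 2 (adjusted p = 0.052).

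Anterior ectoderm genes fell almost as a whole. Of 16 anterior neural and forebrain genes tested, 14 fell and 1 rose, with a median log2 fold change of -5.67, or -5.40 with the 1 gene at 0 set to its bound. LHX5, a LIM homeobox factor of the forebrain that represses Wnt signals, was at 356 and 468 CPM in the controls and 0.598, 1.20, 0.0536, 0 and 0.124 CPM in the SOX2-negative libraries (-9.98 ± 0.78 (SE), adjusted p = 8.3e-05). SIX3, which keeps Wnt genes off in the forebrain, was at 249 and 290.5 against 5.92, 15.1, 2.52, 1.06 and 0.330 CPM, and RAX, the eye field homeobox factor, at 13.5 and 42.9 against 0, 0.214, 0.0536, 0 and 0 CPM. All 3 were lower in every SOX2-negative library than in either control. SIX3 was lowest in the WNT3A 1000 ng/ml libraries, a difference between 1000 and 100 ng/ml that did not pass its test (-3.97 on the log2 scale, adjusted p = 0.22). PAX6, a paired box factor of eye and brain, was at 7.47 and 24.8 against 0 to 0.213 CPM (-7.42 ± 0.77 (SE), adjusted p = 0.00033). HESX1, a repressor needed for forebrain and pituitary, was at 88.8 and 61.1 against 0.0854 to 2.04 CPM. OTX2, which marks epiblast, anterior ectoderm and later anterior endoderm, was at 355 and 346 against 93.7, 62.6, 70.7, 80.3 and 24.3 CPM (-2.42 ± 0.39 (SE), adjusted p = 0.0031). DLX5 and the secreted Wnt antagonist gene SFRP1 fell too (-6.63 ± 0.31 and -1.59 ± 0.19 (SE), adjusted p = 1.7e-05 and 0.00069). FEZF2, the paralogue of FEZF1, had 40 counts in the controls and none in the SOX2-negative libraries, at least 28.7-fold lower. The exception was EMX1, a cortical homeobox gene, at 0.0508 and 0.403 CPM in the controls and 1.44 to 4.2 CPM in the SOX2-negative libraries (adjusted p = 0.015). EMX1 lost its call without control replicate 1 (adjusted p = 0.092). FEZF2 lost its call without control replicate 1 (adjusted p = 0.11) and without control replicate 2 (adjusted p = 0.14). The list as a whole gave 13 lower calls without control replicate 1, 9 without control replicate 2 and 15 without WNT3A 100 SOX2-negative replicate 2.

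The other neural genes fell in part. Among 14 neural progenitor genes tested, 8 fell and 1 rose (median -2.09). HES3, a repressor of neural stem cells, was at 32.3 and 45.6 CPM in the controls and at 0 to 0.513 CPM in the SOX2-negative libraries, ZIC1 at 2.39 and 2.23 against 0 to 0.179 CPM, and ZIC5 at 159.5 and 185 against 13.6 to 41.1 CPM. ZIC1 and ZIC5 encode zinc finger factors of the neural plate, and HES3, ZIC1 and ZIC5 were each lower in every SOX2-negative library than in either control. Of 13 midbrain and hindbrain genes, 4 rose and 2 fell, LMX1A and IRX2. LMX1A, a roof plate and dopaminergic progenitor factor, was at 22.2 and 29.9 CPM in the controls and had 1 count over all 5 SOX2-negative libraries, a ratio of 2657 (95% counting interval 477 to 104929) between control and SOX2-negative levels. Transcripts of the added ligand's own gene, FGF8, were at 3.81 and 6.11 against 1.85 to 5.98 CPM and did not pass the test (adjusted p = 0.92). None of the 4 midbrain and hindbrain rises was called with either control replicate left out, and the neural progenitor list then held 8 and 5 lower calls. 

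Pluripotency genes moved in both directions. Of 17 tested, 8 fell and 2 rose (median -0.80). SOX2 is among those that fell and was selected by the sort. PRDM14, a repressor that guards the pluripotent state, went from 108 and 86.5 CPM to 2.51, 1.07, 1.87, 2.34 and 0.412 CPM (-5.92 ± 0.49 (SE), adjusted p = 0.00011), and DNMT3B, the de novo DNA methyltransferase of pluripotent cells, from 1329 and 1269 to 387, 233, 410.2, 431 and 281 CPM. Neither gene overlapped between the groups. LIN28A, a regulator of let-7 microRNAs and one of the largest losses in absolute level, was at 3365 and 3619 CPM in the controls and 1866, 2015, 1896, 1807 and 1404 CPM in the SOX2-negative libraries, lower in all of them. TDGF1, the Nodal co-receptor also called CRIPTO, rose from 21.3 and 14.4 to 462, 385, 415, 401 and 253 CPM (4.41 ± 0.33 (SE), adjusted p = 7.1e-05). POU5F1, the core pluripotency factor OCT4, did not pass the test, at 503 and 429.5 CPM in the controls and 482, 716, 379.9, 442 and 217 CPM in the SOX2-negative libraries (-0.08 ± 0.37 (SE), adjusted p = 0.92). NANOG was at 10.0 and 6.70 against 12.8, 6.49, 11.2, 9.63 and 2.43 CPM (0.01 ± 0.54 (SE), adjusted p = 0.99). For both the controls lay inside the range of the SOX2-negative libraries, and processed copies of either gene may share their reads. The 8 lower calls of the list were 6 without control replicate 1, 5 without control replicate 2 and 9 without WNT3A 100 SOX2-negative replicate 2. LIN28A lost its call without control replicate 2 (adjusted p = 0.06).

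Primitive streak genes rose together. Of 15 tested, 11 rose and none fell, with a median log2 fold change of 6.58, or 5.32 with the gene at 0 in the controls set to its bound. EOMES, the T-box factor needed for endoderm and cardiac mesoderm, was at 0.203 and 0.0732 CPM in the controls and 290.1, 144, 321, 342 and 108 CPM in the SOX2-negative libraries (10.79 ± 0.88 (SE), adjusted p = 0.0001). The groups were far apart, and within the SOX2-negative group WNT3A 100 replicate 2 and 1000 replicate 2 were the lowest. TBXT was at 0.508 and 0.769 against 24.9, 10.8, 27.8, 59.3 and 9.11 CPM (5.32 ± 0.95 (SE), adjusted p = 0.005), and MIXL1, a homeobox factor of the streak, at 0.254 and 0.220 against 45.2, 6.83, 66.8, 108 and 15.5 CPM (7.64 ± 1.44 (SE), adjusted p = 0.0066). Their levels did not overlap with the controls and, as for EOMES, were lowest in WNT3A 100 replicate 2 and 1000 replicate 2. LHX1, a LIM homeobox factor of streak and node, stood at 0.508 and 0.329 against 210.1, 130, 295, 344 and 156 CPM, and EVX1, a homeobox factor of the posterior streak, at 0.254 and 0.256 against 139, 126, 173, 189.6 and 74.3 CPM. APLNR, the apelin receptor of early mesendoderm, reached 313, 385, 434, 687 and 669.7 CPM from 0.559 and 1.06 CPM. GSC, a homeobox factor of the organizer, was at 0.254 and 0.146 against 2.87, 1.92, 4.07, 7.98 and 0.206 CPM and did not pass the test (adjusted p = 0.058), nor did NODAL, at 0.965 and 0.732 against 4.73, 0.513, 2.94, 5.53 and 0.865 CPM (adjusted p = 0.23). In both, WNT3A 1000 replicate 2 lay among the controls. The list held 9 higher calls with either control replicate left out and 14 without WNT3A 100 SOX2-negative replicate 2. GSC was called by DESeq2 (adjusted p = 0.00087), with all 12 libraries in 3 groups (adjusted p = 0.047), with no filter on low counts (adjusted p = 0.041), without WNT3A 100 SOX2-negative replicate 2 (adjusted p = 0.027) and without WNT3A 1000 SOX2-negative replicate 2 (adjusted p = 0.0092). MIXL1 lost its call without control replicate 1 (adjusted p = 0.073) and without control replicate 2 (adjusted p = 0.086). NODAL was called without WNT3A 100 SOX2-negative replicate 2 (adjusted p = 0.047). TBXT lost its call without control replicate 1 (adjusted p = 0.067) and without control replicate 2 (adjusted p = 0.061).

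The Wnt pathway acts on its targets through TCF/LEF factors, and the windows of 250 bases before the starts of SP5 and MIXL1 are shown because both genes rose and both windows hold a match to the TCF/LEF letters ATCAAAG on either strand. That of CDX2, a caudal and gut homeobox gene that also rose, is shown beside them because it holds none of those letters but matches to 3 other factors of these lineages. They are RefSeq sequences of GRCh38.p14, written along the gene, at chr2:170715087-170715336 (+ strand), chr1:226223414-226223663 (+ strand) and chr13:27969316-27969565 (- strand), with matches in capitals.
SP5: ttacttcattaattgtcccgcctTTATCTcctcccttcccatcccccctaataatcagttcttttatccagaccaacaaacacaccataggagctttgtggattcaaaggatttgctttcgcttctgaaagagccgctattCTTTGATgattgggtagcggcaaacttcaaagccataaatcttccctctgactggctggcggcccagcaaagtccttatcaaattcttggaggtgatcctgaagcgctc
MIXL1: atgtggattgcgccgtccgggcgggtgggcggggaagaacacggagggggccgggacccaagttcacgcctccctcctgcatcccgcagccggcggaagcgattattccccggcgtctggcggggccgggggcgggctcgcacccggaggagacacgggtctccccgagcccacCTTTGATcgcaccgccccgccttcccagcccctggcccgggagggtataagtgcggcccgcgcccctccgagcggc
CDX2: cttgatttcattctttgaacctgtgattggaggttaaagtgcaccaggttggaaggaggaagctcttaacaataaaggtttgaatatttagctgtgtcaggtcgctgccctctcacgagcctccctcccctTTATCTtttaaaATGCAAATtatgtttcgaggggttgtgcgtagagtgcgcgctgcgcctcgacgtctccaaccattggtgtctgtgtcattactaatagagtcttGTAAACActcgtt
In the SP5 window the capitals are TTATCT, the reverse complement of the GATA letters AGATAA, and CTTTGAT, the reverse complement of ATCAAAG. MIXL1 holds CTTTGAT alone. CDX2 holds TTATCT, the octamer ATGCAAAT bound by POU factors, and GTAAACA, the reverse complement of the forkhead letters TGTTTAC, with no overlap between matches. Such matches are descriptions of the letters and not of binding. The bases after the start were found at the beginning of a GENCODE transcript for MIXL1, but not for SP5 or CDX2. Of 2000 windows checked in this way 73.8% passed, so the starts of SP5 and CDX2 rest on RefSeq alone. Over the 17061 windows of the 11608 tested genes with a RefSeq window, ATCAAAG was found in 1.41%, in 1.57% of the windows of genes called higher and in 1.6% of those called lower. For AGATAA the shares were 5.42%, 6.98% and 6.35%, for TGTTTAC 2.22%, 2.98% and 2.46%, for ATGCAAAT 1.28%, 1.57% and 1.66%, for the T-box letters AGGTGTGA 0.639%, 0.961% and 0.863%, and for the SOX letters ACAATG 5.76%, 5.67% and 6.84%. SP5, a zinc finger factor and direct Wnt target, was at 3.40 and 14 CPM in the controls and 358, 466, 352, 295 and 156 CPM in the SOX2-negative libraries (5.20 ± 0.70 (SE), adjusted p = 0.0013), and CDX2 at 0 and 0.0366 against 4.25, 5.08, 10.9, 18.0 and 17.0 CPM, a ratio of 519 (95% counting interval 93.2 to 20513) on 1 count in the controls (adjusted p = 0.0013). Both were higher in each SOX2-negative library than in either control. MIXL1 lost its call without control replicate 1 (adjusted p = 0.073) and without control replicate 2 (adjusted p = 0.086).

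Definitive endoderm genes rose nearly throughout, 15 of 16 tested, with none lower and a median log2 fold change of 6.44. Their summed level was 271.5 to 295.6 CPM in the controls and 1699.5 to 2487.7 CPM in the SOX2-negative libraries. The list was chosen with earlier results of these data known. SOX17, FOXA2, GATA4, GATA6, FOXA1, CER1 and HNF4A passed the filter on low counts through the SOX2-negative libraries alone, which fixed their direction. GATA6, which acts with GATA4 at the start of endoderm, was at 0 and 0.146 against 147, 68.7, 179, 234 and 84.3 CPM (10.63 ± 0.97 (SE), adjusted p = 0.00017), and FOXA1, the paralogue of FOXA2, at 0.0508 and 0.110 against 42.9, 52.3, 28.9, 16 and 30.4 CPM (8.55 ± 0.74 (SE), adjusted p = 0.00013). CXCR4, the chemokine receptor used to isolate endoderm, was at 3.66 and 7.25 CPM in the controls and 82.9, 84.5, 103, 104 and 71.9 CPM in the SOX2-negative libraries (4.01 ± 0.34 (SE), adjusted p = 0.00013). In these 3 genes no library of one group reached the other. CER1, a secreted inhibitor of Nodal, BMP and Wnt from anterior endoderm, was at 0.102 and 0.329 against 38.8, 3.46, 74.1, 214 and 25.2 CPM (adjusted p = 0.018), higher in all 5 and lowest in WNT3A 100 replicate 2. HHEX, a homeobox factor of anterior endoderm, was the tested member that did not pass (26.0 and 21.8 against 33.3, 46.4, 25.3, 16.1 and 12.2 CPM, adjusted p = 0.87). Against the controls the list gave 13 higher calls without control replicate 1, 12 without control replicate 2 and 15 without WNT3A 100 SOX2-negative replicate 2. CER1 lost its call without control replicate 1 (adjusted p = 0.14) and without control replicate 2 (adjusted p = 0.14).

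Later gut and liver genes were among those raised. Of 13 foregut and hindgut genes, 10 rose and 1 fell, with a median of 7.0, or 6.90 with 4 genes at their bound. HNF4A, a nuclear receptor of liver and gut, was at 0.152 and 0.146 CPM in the controls and 18.1, 18.9, 26.2, 27.3 and 32.7 CPM in the SOX2-negative libraries (7.30 ± 0.46 (SE), adjusted p = 3.7e-05). TBX3, a T-box factor of liver bud and heart, was at 1.63 and 0.586 against 148, 80.0, 208, 251 and 187 CPM (7.33 ± 0.69 (SE), adjusted p = 0.0002). CDX1, the caudal paralogue of CDX2, had no counts in the controls and 1.74, 1.07, 1.34, 1.86 and 0.824 CPM in the SOX2-negative libraries, at least 21.4-fold higher. All 3 were above both controls in each SOX2-negative library. The gene that fell was SOX9 (20.4 and 30.6 against 11.2, 8.20, 9.37, 10.2 and 8.37 CPM, adjusted p = 0.0025), a factor of gut progenitors and also of neural crest. PDX1, NKX2-3 and ISX were too low to be tested, as were TTR and AFP of the endoderm list. The gut list gave 8 higher calls with either control replicate left out, and 10 without WNT3A 100 SOX2-negative replicate 2. SOX9 lost its call without control replicate 2 (adjusted p = 0.059).

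Node and anterior mesendoderm genes were mixed. Among 13 tested, 7 rose and 1, OTX2, fell (median 4.06, or 3.39 with 1 gene at its bound). LEFTY2, a secreted Nodal antagonist, was at 0.102 and 0.0732 CPM in the controls and 15.5, 15.2, 23.4, 22.7 and 11.3 CPM in the SOX2-negative libraries (7.58 ± 0.55 (SE), adjusted p = 6e-05). FOXJ1, the factor of motile cilia, was at 0.254 and 0.732 against 27.4, 65.3, 18.5, 12.2 and 10.5 CPM, and CHRD, which encodes the BMP antagonist chordin, at 4.01 and 3.40 against 42.5, 75.6, 28.3, 13.3 and 12.8 CPM. In LEFTY2, FOXJ1 and CHRD every SOX2-negative library was above both controls, and for FOXJ1 and CHRD the levels at WNT3A 1000 ng/ml were the lowest, which did not pass the test between doses (adjusted p = 0.21 and 0.097). Without control replicate 1 this list held 3 higher calls, without control replicate 2 it held 4, and without WNT3A 100 SOX2-negative replicate 2 it held 9. CHRD lost its call without control replicate 1 (adjusted p = 0.14) and without control replicate 2 (adjusted p = 0.18). FOXJ1 lost its call without control replicate 1 (adjusted p = 0.063).

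**Figure D3:**
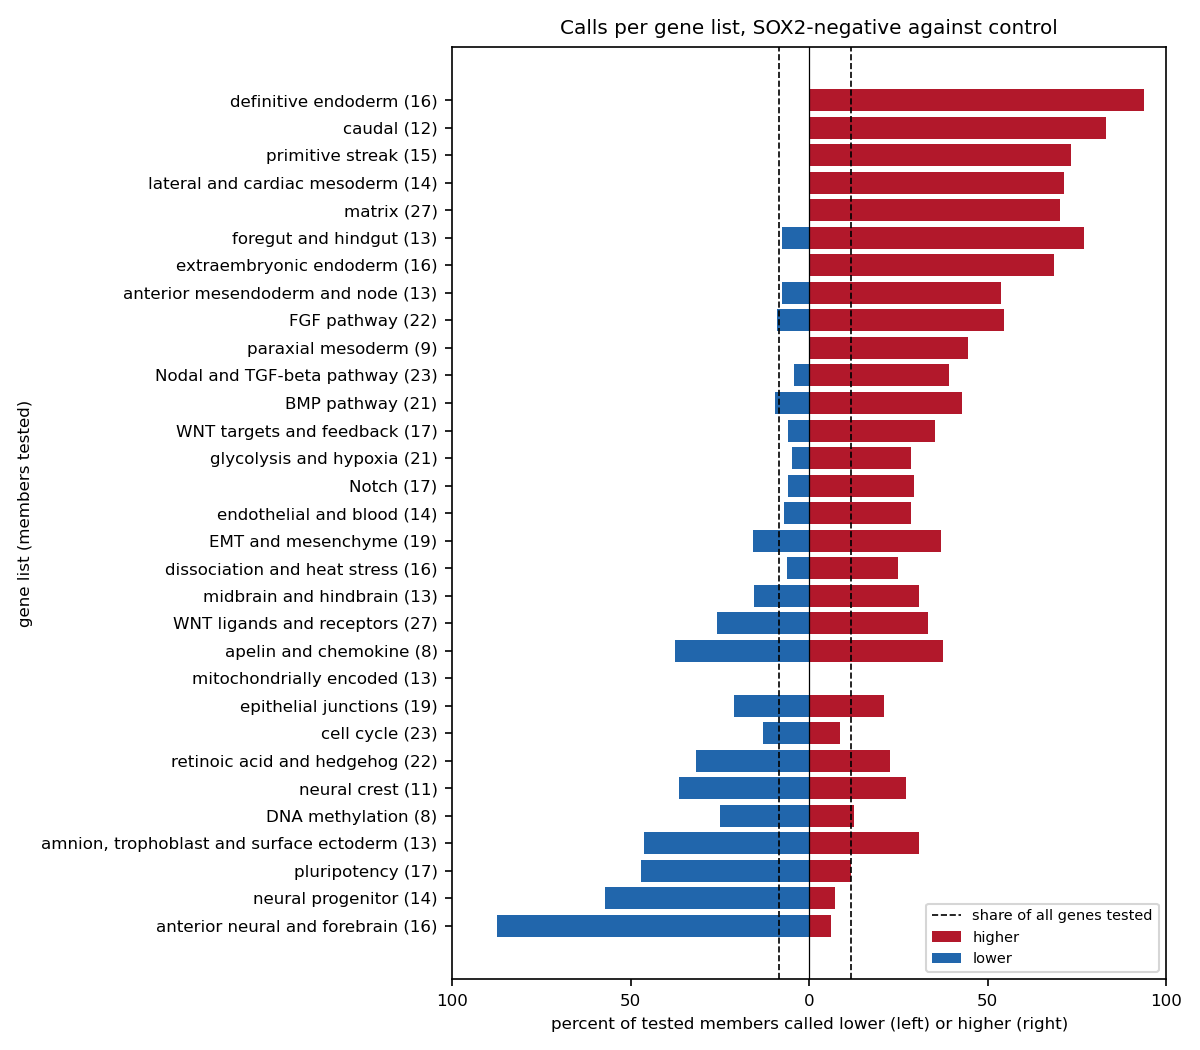
Percent of the tested genes of each list that were called higher (to the right) or lower (to the left) in the SOX2-negative libraries, with dashed lines at the shares of all tested genes (11.7% and 8.5%). Endoderm, gut, streak and caudal lists reach furthest to the right and the anterior neural list furthest to the left. The lists were chosen with earlier results of these data known.

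Mesoderm genes rose in part. Of 14 lateral and cardiac mesoderm genes tested, 10 rose and none fell (median 5.47, or 4.68 with 2 genes at their bound). GATA4, GATA6, TBX3 and the other GATA factor of the list, GATA5 (1.42 and 2.71 CPM in the controls, 16.8, 31.7, 22.7, 23.2 and 32.1 CPM in the SOX2-negative libraries), are also genes of endoderm. NKX2-5, the homeobox factor of the early heart, had no counts in the controls and 1.38, 3.16, 3.21, 7.82 and 12.7 CPM in the SOX2-negative libraries, at least 88.4-fold higher (adjusted p = 0.0075). MYL7, an atrial myosin light chain, had 2 counts in the controls and reached 5.15, 7.30, 7.28, 8.67 and 4.74 CPM, a ratio of 156 (95% counting interval 43.1 to 1286). Both were above the controls in each SOX2-negative library. HAND1, a factor of lateral and extraembryonic mesoderm, was at 10.4 and 8.20 against 12.6, 28.7, 25.4, 58.8 and 177 CPM, and the growth factor receptor gene PDGFRA at 13.3 and 9.19 against 16, 5.89, 21.2, 30.4 and 60.9 CPM, and neither passed the test (adjusted p = 0.1 and 0.29). WNT3A 1000 replicate 2 was the highest library for both genes, and for PDGFRA WNT3A 100 replicate 2 lay below the controls. Of 9 paraxial genes, 4 rose (median 1.41), among them MESP2 (0.254 and 0.110 against 13.6 to 22.4 CPM) and DLL3 (1.32 and 2.85 against 84.1 to 210.2 CPM), genes of somite formation. The lateral list held 6 higher calls with either control replicate left out and 12 without WNT3A 100 SOX2-negative replicate 2, the paraxial list 3, 2 and 4. HAND1 was called by DESeq2 (adjusted p = 0.037) and without WNT3A 100 SOX2-negative replicate 2 (adjusted p = 0.043). NKX2-5 lost its call without control replicate 1 (adjusted p = 0.051) and without control replicate 2 (adjusted p = 0.064). PDGFRA was called without WNT3A 100 SOX2-negative replicate 2 (adjusted p = 0.04).

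Genes of the posterior end of the axis were higher as well. Among 12 caudal genes tested, 10 rose and none fell (median 5.72, or 4.87 with the gene at 0 at its bound). FGF17, a ligand of the FGF8 family, was at 0.457 and 0.915 CPM in the controls and 79.9, 56.3, 108, 165 and 20.3 CPM in the SOX2-negative libraries, and WNT8A, a Wnt ligand of the streak, at 0.0508 and 0.293 against 10.1, 4.83, 14.7, 25.4 and 11.9 CPM. Transcripts of WNT3A, the gene of the ligand added, were at 0.102 and 0 CPM in the controls and 3.95, 6.07, 3.43, 5.37 and 0.618 CPM in the SOX2-negative libraries, a ratio of 91.3 (95% counting interval 25.3 to 754) on 2 counts. All 3 were above both controls in every SOX2-negative library, and for FGF17 and WNT3A the 1000 ng/ml replicate 2 was the lowest of these. CYP26A1, the retinoic acid degrading enzyme of the posterior streak and of the anterior ectoderm, did not pass (201 and 195 against 279.5, 271, 305, 290.4 and 31.1 CPM, adjusted p = 0.85). The caudal list held 7 higher calls without control replicate 1, 6 without control replicate 2 and 11 without WNT3A 100 SOX2-negative replicate 2. CYP26A1 was called without WNT3A 1000 SOX2-negative replicate 2 (adjusted p = 0.043). WNT3A lost its call without control replicate 2 (adjusted p = 0.1).

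HOX genes, which pattern the trunk along its axis, were low. Of 39 in the table, 6 passed the filter on low counts, and all 6 had no counts in the controls. They entered the test through the SOX2-negative libraries alone, so their direction was fixed by the filter and their levels are a description. Their summed level was 1.317 to 38.11 CPM in the SOX2-negative libraries. HOXB2 was at 0.179, 2.09, 1.23, 1.81 and 9.06 CPM and HOXB9 at 0.299, 0.854, 1.02, 0.957 and 8.08 CPM, and WNT3A 1000 replicate 2 was the highest library for both and WNT3A 100 replicate 1 the lowest.

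Markers of other cell types were read in the same libraries. Extraembryonic endoderm, the yolk sac lineage that shares SOX17, GATA4 and GATA6 with definitive endoderm, had 11 of 16 tested genes higher and none lower (median 2.00). They included DAB2 (5.13 and 4.50 against 99.8, 80.3, 113, 92.5 and 211 CPM) and COL4A1 (136 and 140.2 against 956, 703, 1160.2, 1072 and 972 CPM), while TTR had no counts in any of the 7 libraries and SOX7 did not pass the test (2.13 and 0.476 against 0.838, 2.14, 0.750, 1.06 and 3.01 CPM, adjusted p = 0.85). Endothelial and blood genes gave 4 rises and 1 fall among 14. The gene that fell was TEK, also a gene of endothelium. PECAM1 was at 0.762 and 0 against 5.92, 5.98, 5.09, 4.89 and 5.81 CPM, CDH5 at 0.203 and 0 against 2.69, 2.86, 3.69, 3.46 and 3.54 CPM, and TAL1 at 0.610 and 0.512 against 0.0598, 0, 0, 0.106 and 1.36 CPM. PECAM1 and CDH5, adhesion genes of endothelium, were thus higher in each SOX2-negative library, whereas TAL1, which specifies blood, did not pass the test (adjusted p = 0.76). KDR, the VEGF receptor of endothelial and cardiac progenitors, was at 7.67 and 10.5 against 20.1, 22.5, 42.4, 82.8 and 271 CPM (adjusted p = 0.08), highest in WNT3A 1000 replicate 2. The endothelial and blood list held 4 higher calls and no lower one with either control replicate left out, and 7 higher and 2 lower without WNT3A 100 SOX2-negative replicate 2. The extraembryonic list held 7 and 8 higher calls without control replicates 1 and 2, and 12 without WNT3A 100 SOX2-negative replicate 2. The part of these cell types in the results above was not tested. KDR was called by DESeq2 (adjusted p = 0.016), with all 12 libraries in 3 groups (adjusted p = 0.02), with all 12 libraries in 7 groups (adjusted p = 0.0014), without WNT3A 100 SOX2-negative replicate 2 (adjusted p = 0.022) and without WNT3A 1000 SOX2-negative replicate 2 (adjusted p = 0.048).

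Amnion, trophoblast and surface ectoderm genes split, with 4 of 13 higher and 6 lower. TFAP2A, a factor of surface ectoderm and neural crest, was at 211 and 154 CPM in the controls and 3.47, 1.88, 5.19, 7.87 and 7.25 CPM in the SOX2-negative libraries (-5.16 ± 0.45 (SE), adjusted p = 0.00014), KRT7 at 18.2 and 16.4 against 0.120, 0.171, 0.482, 0.160 and 0 CPM, and GRHL3, a factor of surface epithelium, at 75.4 and 85.4 against 6.16, 5.77, 8.94, 8.62 and 4.99 CPM. These 3 genes were lower in all SOX2-negative libraries than in either control. GATA3, an early gene of trophoblast and amnion, was at 82.6 and 59.2 against 140.4, 166, 165, 146 and 179.6 CPM (1.15 ± 0.20 (SE), adjusted p = 0.0048), and ISL1, a LIM factor of heart progenitors and amnion, at 2.29 and 2.12 against 18.9, 17.9, 26.2, 30.1 and 36.1 CPM. Neural crest genes gave 3 rises and 4 falls among 11. MSX1 rose (0.559 and 1.28 against 63.2, 66.8, 98.8, 130.3 and 75.2 CPM), and SOX10 did not pass (3.86 and 5.82 against 7.36, 9.06, 7.12, 7.39 and 5.56 CPM, adjusted p = 0.21). The neural crest list gave 2 higher and 2 lower calls without control replicate 1 and 2 and 1 without control replicate 2. The lower calls of the first list numbered 5 with either control replicate left out and 6 without WNT3A 100 SOX2-negative replicate 2. GATA3 lost its call without control replicate 2 (adjusted p = 0.089) and with all 12 libraries in 3 groups (adjusted p = 0.057).

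Wnt pathway genes did not move as one. Of 27 ligand, receptor and antagonist genes tested, 9 rose and 7 fell (median 0.45). WNT3, the ligand that starts the streak in the mouse, was at 3.35 and 3.88 against 69.0, 48.7, 82.3, 99.5 and 42.1 CPM (4.22 ± 0.43 (SE), adjusted p = 0.00033), RSPO3, an agonist, at 0.305 and 0.732 against 11.3, 4.40, 12.1, 17.0 and 8.90 CPM, and the receptor gene FZD4 at 14.4 and 16.8 against 124, 108, 133, 119.8 and 179 CPM. Among 17 targets and feedback inhibitors, 6 rose and 1 fell (median 1.10). LGR5, the R-spondin receptor of intestinal stem cells, was at 0.457 and 0.256 CPM in the controls and 31.4, 14.9, 41.2, 58.4 and 67.0 CPM in the SOX2-negative libraries (6.91 ± 0.80 (SE), adjusted p = 0.00059). The inhibitor genes NOTUM (6.76 and 6.11 against 147, 233, 190.3, 217 and 106 CPM) and NKD1 (12.5 and 11.6 against 139, 80.2, 197, 229.6 and 171 CPM) were likewise above both controls in every SOX2-negative library. AXIN2 and LEF1, targets used widely as readouts of the pathway, did not pass. AXIN2 was at 27.8 and 29.5 against 69.2, 43.2, 81.9, 83.0 and 33.3 CPM (adjusted p = 0.076) and LEF1 at 10.4 and 13.2 against 10.2, 11.2, 15.7, 24.1 and 47.6 CPM (adjusted p = 0.35). AXIN2 was nonetheless above both controls in all 5 libraries, whereas LEF1 overlapped. CCND1, the G1 cyclin gene, fell (276 and 299 to 116, 126, 116, 125 and 134 CPM, -1.23 ± 0.14 (SE), adjusted p = 0.00061). The targets list gave 4 and 5 higher calls without control replicates 1 and 2, and 10 without WNT3A 100 SOX2-negative replicate 2 or without WNT3A 1000 SOX2-negative replicate 2. The ligand and receptor list gave 5 higher and 3 lower without control replicate 1, 6 and 2 without control replicate 2, and 11 and 10 without WNT3A 100 SOX2-negative replicate 2. AXIN2 was called by DESeq2 (adjusted p = 0.018), with all 12 libraries in 3 groups (adjusted p = 0.017), with all 12 libraries in 7 groups (adjusted p = 0.031), without WNT3A 100 SOX2-negative replicate 2 (adjusted p = 0.018) and without WNT3A 1000 SOX2-negative replicate 2 (adjusted p = 0.022).

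FGF feedback genes rose. Of 22 FGF pathway genes tested, 12 rose and 2 fell (median 1.58). DUSP6, the ERK phosphatase gene, was at 3.56 and 3.81 CPM in the controls and 202, 174, 286, 308 and 256 CPM in the SOX2-negative libraries (6.04 ± 0.36 (SE), adjusted p = 3e-05), SPRY4 at 11 and 15.3 against 259.9, 184, 313, 362 and 208 CPM, and ETV5, an ETS factor downstream of ERK, at 5.39 and 9.19 against 84.7, 92.6, 93.1, 84.3 and 91.4 CPM. SPRY2 rose as well (3.29 ± 0.24 (SE), adjusted p = 6.4e-05). These genes were above both controls in every SOX2-negative library. FGF2, the ligand that maintains pluripotent cells, fell from 174 and 124 to 15.4, 8.20, 18.8, 24.6 and 19.2 CPM (-3.12 ± 0.34 (SE), adjusted p = 0.00045). Without control replicate 1 the list held 7 higher calls, without control replicate 2 it held 10, and without WNT3A 100 SOX2-negative replicate 2 it held 13.

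Some Nodal and BMP pathway genes rose as well. In the Nodal and TGF-beta list 9 of 23 tested genes rose and 1, SMAD3, fell (median 1.10). Those that rose included the co-receptor genes TDGF1 and CFC1 (the latter at 3.51 and 3.92 against 40.0, 91.9, 46.5, 47.1 and 95.2 CPM, with a near-identical copy, CFC1B, that may share its reads), the antagonist genes LEFTY1 (no counts in the controls and 2.21, 1.45, 2.57, 5.21 and 0.618 CPM in the SOX2-negative libraries, at least 37.8-fold higher), LEFTY2 and CER1, and TGFB1 (12.8 and 13.0 against 161, 174, 194, 215 and 118 CPM). The ligand gene NODAL itself did not pass, as given above. Of 21 BMP pathway genes, 9 rose and 2 fell (median 0.80). BMP2, a ligand, was at 11.6 and 15.6 against 252, 225, 302, 288 and 252 CPM (4.26 ± 0.25 (SE), adjusted p = 3e-05), and the antagonist gene GREM1 at 46.1 and 47.9 against 1.74, 5.34, 1.98, 1.49 and 7.21 CPM (-3.72 ± 0.55 (SE), adjusted p = 0.002). BMP2 was thus higher and GREM1 lower in all SOX2-negative libraries. The Nodal list held 7 higher calls with either control replicate left out and 12 without WNT3A 100 SOX2-negative replicate 2, the BMP list 4 and 11. CER1 lost its call without control replicate 1 (adjusted p = 0.14) and without control replicate 2 (adjusted p = 0.14). LEFTY1 lost its call without control replicate 1 (adjusted p = 0.055) and without control replicate 2 (adjusted p = 0.069). NODAL was called without WNT3A 100 SOX2-negative replicate 2 (adjusted p = 0.047).

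Retinoic acid, hedgehog and Notch genes each moved in both directions. Of 22 retinoic acid and hedgehog genes, 5 rose and 7 fell. ALDH1A2, the enzyme that makes retinoic acid in the embryo, was at 47.2 and 67.5 CPM in the controls and 0.179, 0.299, 0.0536, 0 and 0.247 CPM in the SOX2-negative libraries (-8.41 ± 0.50 (SE), adjusted p = 3.1e-05), and CYP26C1, which degrades it, at 114 and 135 against 0.658, 2.01, 0.696, 1.38 and 0.288 CPM. Both were lower in every SOX2-negative library, but not all enzymes of either kind moved that way. The retinoic acid-making enzyme genes ALDH1A1 (0.152 and 0.220 against 1.38, 2.01, 1.18, 1.70 and 0.742 CPM, adjusted p = 0.017) and ALDH1A3 (0.660 and 0.0366 against 4.67, 0.854, 5.62, 7.29 and 3.71 CPM, adjusted p = 0.045) rose, and the degrading enzyme genes CYP26A1, given above, and CYP26B1 (0.203 and 0.476 against 0.658, 0.470, 0.857, 1.49 and 0.824 CPM, adjusted p = 0.23) did not pass. IHH, the hedgehog ligand of gut, was at 0.203 and 0 against 5.09, 13.8, 8.09, 13.9 and 15.6 CPM (6.90 ± 0.93 (SE), adjusted p = 0.0013), and the effector GLI3 fell (136 and 141 against 3.80 to 17.9 CPM). In the Notch list 5 of 17 rose and DLL1, a ligand of neural and paraxial cells, fell (69.8 and 61.2 against 6.19 to 17.0 CPM). Without control replicate 1 or 2 the Notch list held 2 higher calls. The hedgehog and retinoic acid list held 3 higher and 5 lower calls without control replicate 1, 2 and 5 without control replicate 2, and 5 and 9 without WNT3A 100 SOX2-negative replicate 2. ALDH1A1 lost its call without control replicate 1 (adjusted p = 0.14) and without control replicate 2 (adjusted p = 0.12). ALDH1A3 lost its call without control replicate 2 (adjusted p = 0.24), without WNT3A 100 SOX2-negative replicate 1 (adjusted p = 0.082), without WNT3A 1000 SOX2-negative replicate 1 (adjusted p = 0.084), without WNT3A 1000 SOX2-negative replicate 2 (adjusted p = 0.062) and without WNT3A 300 SOX2-negative replicate 1 (adjusted p = 0.085). CYP26A1 was called without WNT3A 1000 SOX2-negative replicate 2 (adjusted p = 0.043).

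Of 27 listed extracellular matrix genes tested, 19 rose and none fell (median 1.75), and their summed level went from 3724.2 to 3777.4 CPM in the controls to 16849.0 to 26002.5 CPM in the SOX2-negative libraries. FN1 accounts for much of that sum (6.89 ± 0.52 (SE), adjusted p = 6.9e-05). COL5A1, a fibrillar collagen gene, was at 61.8 and 51.9 against 359, 340.4, 587, 728 and 652 CPM, COL6A1, of microfibrils, at 93.5 and 92.2 against 801, 808, 886, 1036 and 551 CPM, and COL4A1 encodes a basement membrane collagen given above. All 3 were higher in each SOX2-negative library. Other matrix genes fell: of all 40 collagen genes tested, 19 rose (47.5%) and 7 fell (17.5%), the latter COL17A1, COL12A1, COL20A1, COL14A1, COL22A1, COL9A1 and COL16A1. With either control replicate left out 2 collagen genes fell, and 13 and 11 rose. Among 19 genes of the epithelial to mesenchymal transition, 7 rose and 3 fell. CDH1, which encodes E-cadherin, was at 381 and 354 CPM in the controls and 122, 169.8, 101, 74.4 and 139 CPM in the SOX2-negative libraries (-1.61 ± 0.27 (SE), adjusted p = 0.0038). CDH2, for N-cadherin, was at 169 and 220.3 against 898, 613, 817, 655 and 729.7 CPM (1.92 ± 0.23 (SE), adjusted p = 0.00069). CDH1 was thus lower and CDH2 higher in all 5 SOX2-negative libraries than in either control. TWIST1 (0.305 and 0.220 against 3.41, 4.57, 4.44, 8.46 and 11 CPM), SNAI2 (0.102 and 0.220 against 5.68, 3.85, 11.7, 19.3 and 34.9 CPM) and the metalloproteinase genes MMP2 (2.57 ± 0.21 (SE)) and MMP14 (3.16 ± 0.24 (SE)) rose. CDH6, a cadherin of neural plate and kidney, fell (-7.06 ± 0.24 (SE), adjusted p = 7.4e-06). Vimentin, VIM, did not pass (83.6 and 188 against 136, 169, 243, 376 and 628 CPM, adjusted p = 0.23), and of 19 epithelial junction genes, 4 rose, among them PKP2, and 4 fell. The matrix list held 12 and 11 higher calls without control replicates 1 and 2 and 22 without WNT3A 100 SOX2-negative replicate 2, and the transition list 5, 5 and 10. The junction list held 3 higher and 2 lower calls without control replicate 1, 2 and 3 without control replicate 2, and 6 and 4 without WNT3A 100 SOX2-negative replicate 2. SNAI2 lost its call without control replicate 1 (adjusted p = 0.077) and without control replicate 2 (adjusted p = 0.073).

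Lists of general cell functions were read as well. Beside them stand shares of 11.7% higher and 8.5% lower over all genes tested. Without WNT3A 100 SOX2-negative replicate 2 those shares were 21% and 17.8%. The cell cycle list (8.7% higher, 13.04% lower) lay near the first shares. So did the ZNF genes for lower calls (8.66%), but not for higher ones (2.47%). Of 21 glycolysis and hypoxia genes, 6 rose and 1 fell (median 0.59). They included SLC2A3 (244 and 324 against 1737, 1648, 2184, 2285 and 2238 CPM) and VEGFA, the angiogenic factor (38.7 and 35.7 against 241, 285, 200.5, 170.2 and 204 CPM). Among 23 cell cycle genes, 2 rose and 3 fell, CCND1 among them, against 3 and 9 without WNT3A 100 SOX2-negative replicate 2 and 0 and 1 with either control replicate left out. MKI67, a proliferation marker, did not pass (244 and 219.7 against 254, 109, 312, 270.2 and 379.9 CPM, adjusted p = 0.8). None of the 13 mitochondrially encoded genes was called (median 0.22), and 1 was called higher without WNT3A 100 SOX2-negative replicate 2. Of 82 ribosomal protein genes, 1 rose and 3 fell (median -0.28), but without WNT3A 100 SOX2-negative replicate 2, 1 rose and 65 fell (median -0.57). Their summed level was 62729 to 72151 CPM in the controls and 40762 to 92870 CPM in the SOX2-negative libraries, so that group overlapped the controls on both sides. Of 485 ZNF zinc finger genes, 12 rose and 42 fell, against 46 and 111 without that same library. Of 16 genes of dissociation and heat stress, 4 rose and 1 fell. Their part in the other results was not tested. The glycolysis list held 3 higher and 0 lower calls with either control replicate left out and 9 and 4 without WNT3A 100 SOX2-negative replicate 2. The stress list held 3 higher calls without control replicate 1, none without control replicate 2, 1 without WNT3A 100 SOX2-negative replicate 1 or without WNT3A 300, and 7 higher and 3 lower without WNT3A 100 SOX2-negative replicate 2. 

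Each dose with repeats was compared with the controls in a model of all 12 libraries. At WNT3A 100 ng/ml 3514 of 17047 genes were called (20.6%), 2037 higher (11.9%) and 1477 lower (8.66%), and at 1000 ng/ml 3028 (17.8%), 1817 higher (10.7%) and 1211 lower (7.1%). The comparisons share the controls. The counts that follow are over all genes listed, not all of which were tested. At 100 and 1000 ng/ml, 15 and 14 of 18 definitive endoderm genes rose, and 12 and 11 of 15 streak genes. So did 8 and 11 of 14 caudal genes and 10 and 12 of 18 lateral and cardiac genes, while 1 lateral and cardiac gene fell at 100 ng/ml. Of 18 anterior neural genes 13 fell at either dose, and 1 rose at 1000 ng/ml. No gene was called between 1000 and 100 ng/ml by edgeR (0%), where 3107 passed at an unadjusted p under 0.05 and DESeq2 called 411. That count rests on single libraries, since without WNT3A 100 SOX2-negative replicate 1 it was 5739, and without 100 replicate 2, 1000 replicate 1 and 1000 replicate 2 it was 1, 6 and 0. The difference between doses for SNAI2 was 2.51 on the log2 scale (adjusted p = 0.097), for KDR 3.06 (adjusted p = 0.097), for CHRD -2.18 (adjusted p = 0.097) and for SOX17 -0.65 (adjusted p = 0.38). None of these 4 differences between doses passed the test. The counts against control were 1498 and 1410 at 100 ng/ml without control replicates 1 and 2 and 6993 without WNT3A 100 SOX2-negative replicate 1, and 1555 and 1397 at 1000 ng/ml without the controls in turn and 1861 without WNT3A 1000 SOX2-negative replicate 2.

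The SOX2-positive cells of the same colonies had the same treatment and differ from the SOX2-negative ones by the sort. Libraries of both gates from the same dose and repeat were taken as independent in this test, with no term for pair or dose. Between SOX2-negative and SOX2-positive libraries 5387 of 16335 genes were called (33%), 2912 higher (17.8%) and 2475 lower (15.2%) in the SOX2-negative cells. SOX17 was at 1.78 to 8.46 CPM in the 5 SOX2-positive libraries, below every SOX2-negative library (log2 difference 6.98, adjusted p = 1.8e-07), and FOXA2 at 1.73 to 7.01 CPM (5.39, adjusted p = 1.8e-07). GATA4 (6.41, adjusted p = 3.4e-07), HNF4A (6.53, adjusted p = 1.5e-07) and FN1 (4.66, adjusted p = 2.1e-07) differed likewise. Of 18 listed endoderm genes 16, and of 18 listed lateral and cardiac genes 14, were called higher in the SOX2-negative cells, and none lower. POU5F1 and NANOG, which did not pass against the controls, were lower in SOX2-negative than in SOX2-positive cells: POU5F1 was at 989.5 to 1928 CPM in the SOX2-positive libraries (-1.76, adjusted p = 0.00024) and NANOG at 30.4 to 118 CPM (-2.99, adjusted p = 0.00022). TBXT was shared by both gates, at 1.20 to 26.5 CPM in the SOX2-positive libraries, and did not pass the test between them (1.29, adjusted p = 0.16). The same holds for SIX3, at 0.472 to 9.36 CPM in the SOX2-positive libraries (0.36, adjusted p = 0.77). KDR was at 96.1 to 190.2 CPM in the SOX2-positive libraries and did not pass either (-0.66, adjusted p = 0.42). Of the SOX2-negative libraries only WNT3A 1000 replicate 2 (271.4 CPM) lay above these levels. The others, at 20.05 to 82.75 CPM, lay below every SOX2-positive library. Of 18 listed anterior neural genes, 6 were called lower and 1 higher in SOX2-negative than in SOX2-positive cells. FEZF1 was at 17.8 to 70.8 CPM in the latter (-4.74, adjusted p = 7.2e-06) and LHX5 at 2.71 to 51.3 CPM (-5.62, adjusted p = 0.00068). Relative to the control mean, the median gene of this list was at -2.76 to -3.45 on the log2 scale in the SOX2-negative libraries. In the SOX2-positive libraries it was at -2.07 to -3.26, so it was low in both gates.

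**Figure D4:**
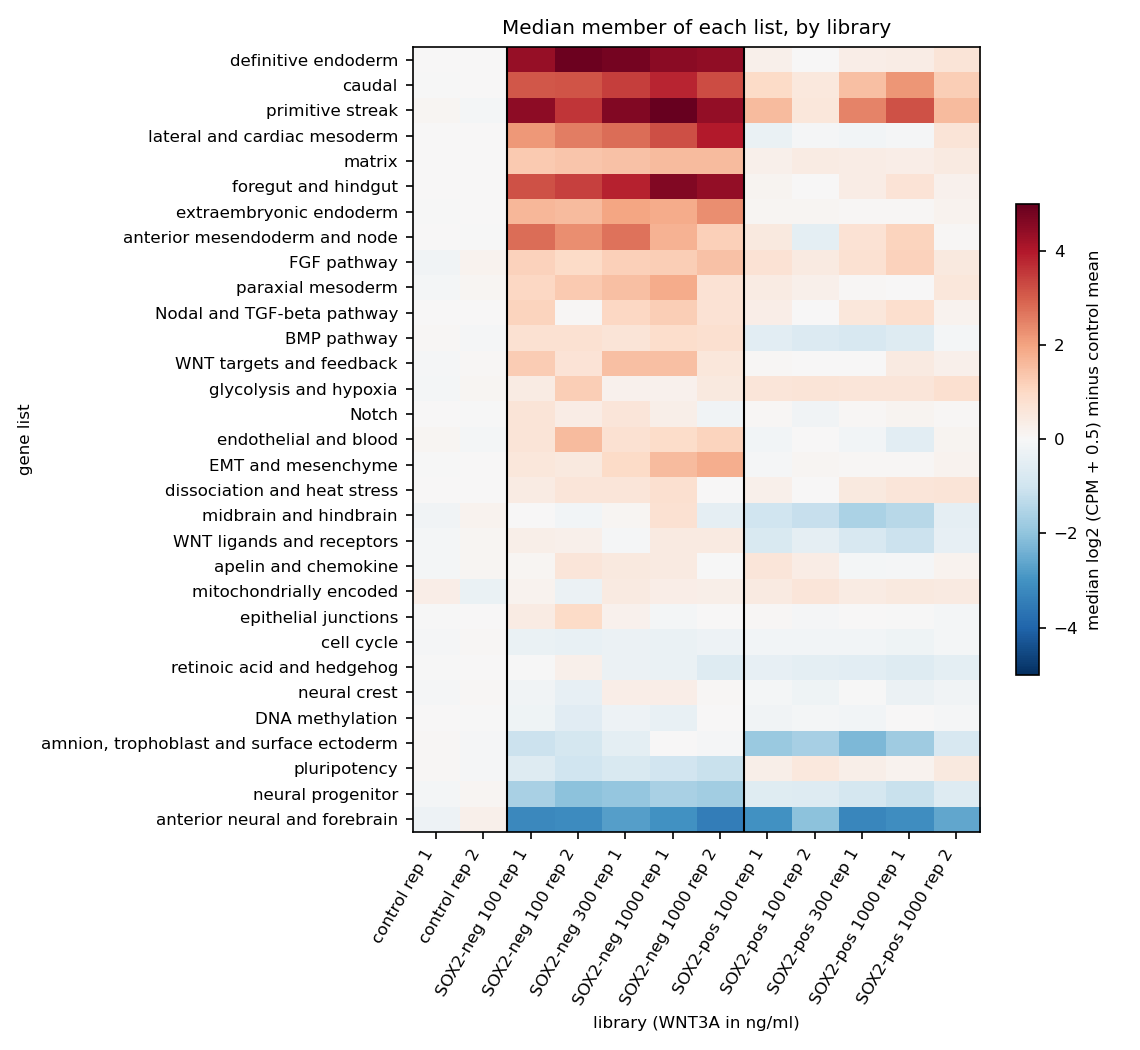
Median over the genes of each list of log2 of CPM with 0.5 added, minus the control mean, in each of the 12 libraries. The definitive endoderm, gut and lateral mesoderm lists are raised in the 5 SOX2-negative libraries and the anterior neural list is lowered in the libraries of both gates.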

How the data were processed

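RNA was measured in 12 libraries of 1 cell line, 7 of which enter the main comparison. Per the labels' protocols, poly-A RNA was primed with random hexamers and read from both ends. The values deposited by the authors are estimated counts of each gene, unscaled. The submitters' processing notes list Salmon and GRCh38; version, annotation release and strand setting are not given in the sources used here, so reads of overlapping or antisense genes, such as SOX2 and the transcript around it, cannot be told apart. Of 37951 Ensembl identifiers, rows sharing 1 of 35940 symbols were summed (1034 symbols, mostly alternate gene copies) and rounded to whole numbers.

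The main test was the two-sided quasi-likelihood test of edgeR 4.0.16 (glmQLFit, glmQLFTest; R 4.3.3) after TMM scaling and filterByExpr by group (at least 10 counts, 15 in total). P-values were adjusted by Benjamini-Hochberg over every gene tested, with a threshold of 0.05. The pooled comparison used 7 libraries in 2 groups (5 residual degrees of freedom, prior 3.7). Comparisons of doses used 12 libraries in 7 groups (5, prior 5.6), and that with SOX2-positive cells 12 libraries in 3 groups. CPM used TMM factors over 12 libraries. Folds against a group without counts are bounds against 3 counts over that group (0.06383 CPM in the controls, 0.02945 in the SOX2-negative libraries), and ratios on 1 to 3 counts carry 95% intervals, both for counting error only. Scripts were tested on simulated data. There the pooled test recovered 20.8% of 2-fold, 80% of 4-fold, 78% of 8-fold and 97.9% of 16-fold changes. A gene that did not pass may therefore still differ. Replicates differed by more than sampling noise (chi-square per degree of freedom 22.9 to 142), so none were merged.

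Genes named were 20 fixed genes, per direction 12 by largest fold and 8 by largest difference in CPM, and list members. The 12 by fold had at least 10 CPM in the higher group and no overlap between the groups, so their separation is no result. Of each of 31 lists and 31 symbol families up to 6 called members were named, with members that did not pass. Some of these and all members and lists were chosen with earlier results of these data known. Alternatives were DESeq2 1.42.0, other scaling and filters, identifiers kept apart, the repeat as a block, other groupings and each library left out. Gene positions are from GENCODE 29 on GRCh38, and promoters, 250 bases before the start, from RefSeq. A few genes are not reported here.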

Additional observations from a re-analysis of the deposited data

Results flagged for a closer look

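Among the genes named, 1 of the 5 SOX2-negative libraries stood apart from the other 4 in 18 cases, by a gap to the nearest library of more than 0.71 of the group's range (Dixon's 95% critical value for 5 samples). Chance alone flags about 1 in 20 groups. The number of genes read for this is not given here, so the 18 cases cannot be read as an excess over chance. The 2 libraries with the most genes more than 2-fold off the others account for 16 of them, and the part of GC content and transcript length was not tested. WNT3A 100 replicate 2 stood above the others for CST1 (961.3 CPM, others 185.7 to 367.5), KRT8 (6398 CPM, others 2271 to 3262), HLA-B (2823 CPM, others 505.2 to 807.6), FBLN2 (1711 CPM, others 901.2 to 1132), EEF2, a translation elongation factor gene (3168 CPM, others 2142 to 2251), and RAX (0.2136 CPM, others 0 to 0.05355). In all of these except EEF2 and RAX, the SOX2-negative libraries without it were still above both controls.

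WNT3A 1000 replicate 2 stood above the others for the mesoderm and posterior genes HAND1 (176.6 CPM, others 12.57 to 58.77), KDR (271.4 CPM, others 20.05 to 82.75), HOXB2 (9.065 CPM, others 0.1795 to 2.093), HOXB9 (8.076 CPM, others 0.2992 to 1.017) and TAL1 (1.36 CPM, others 0 to 0.1064), and for DAB2 (210.6 CPM, others 80.35 to 113.3), SMAD3 (14.87 CPM, others 7.283 to 8.988) and PABPC1, which encodes a poly-A binding protein (1371.5 CPM, others 1024.7 to 1111.5). It stood below them for CYP26A1 (31.11 CPM, others 271.1 to 304.8) and FGF8 (1.854 CPM, others 4.967 to 5.981). The other replicate at 1000 ng/ml did not share these levels. LMX1A (0.05318 CPM in WNT3A 1000 replicate 1) and SEZ6 (0.1795 CPM in WNT3A 100 replicate 1) had all their few counts in 1 library and 0 in the other 4.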

How the results depend on the processing

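The count of genes called in the pooled comparison stayed within 1.5 times of 3192 under the alternatives that kept all 7 libraries, from 2981 with the repeat as a block to 4725 with all 12 libraries in 3 groups, and DESeq2 called 4367. Leaving out 1 library gave 1107 to 6082. The same gave 1410 to 6993 at WNT3A 100 ng/ml, 1397 to 2100 at 1000 ng/ml and 0 to 5739 between these doses, where DESeq2 called 411, no filter on low counts gave 1551 and the block gave 1. Against the SOX2-positive cells the range was 4524 to 7005. GDF1 was the 1 gene that turned, with a log2 fold change of -0.17 that ran from -1.17 without control replicate 1 to 10.99 without control replicate 2, and the cause was not tested. Of 551 genes of the naming rule, 346 were called. Of these, 180 kept the call under every alternative that gave a value, 95 lost it only with a control left out and 71 elsewhere, while 71 of 205 others gained one. Same-numbered libraries, which the series text describes as repeats, deviated from their group means with correlations of 0.18, 0.014 and -0.06 across 17047 genes, so pairing is not clear, and the block changed the call of no gene named in the report. Each comparison with the controls rests on 2 libraries, and a lone control is assumed to vary like the others. Counting error matters mainly for genes at 0 to 3 counts in a group.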

Other observations

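Further genes, most of them outside the lists of cell types and pathways, changed. CDH9, a neuronal cadherin gene, was at 15.9 and 13.1 CPM in the controls and had 0 counts in the SOX2-negative libraries, at least 492-fold lower. LMO1, a LIM-only gene of neural cells, was at 71.3 and 87.0 against 0.179, 0.214, 0, 0 and 0.0412 CPM (-9.73 ± 0.53 (SE), adjusted p = 2.5e-05 in edgeR's quasi-likelihood test, as below), and SEZ6, a neuronal surface gene, at 9.45 and 17.6 CPM with 3 counts over the SOX2-negative libraries, a ratio of 459 (95% counting interval 157 to 2228). All 3 were lower in each SOX2-negative library than in either control, which the rule that named them required. PRSS2, which encodes a trypsinogen and has near-identical relatives, had no counts in the controls and 16.2, 16.6, 11.3, 6.75 and 2.64 CPM in the SOX2-negative libraries (at least 168-fold higher), and GPR55, a G protein-coupled receptor gene, none and 19.9, 16.4, 28.8, 29.9 and 27.8 CPM (at least 385-fold higher). Of 9 S100 calcium-binding protein genes tested, 6 rose, as did 5 of 9 annexin genes, while 1 annexin fell, and with either control replicate left out 3 of the S100 genes were called higher. S100A10 was at 7.21 and 9.66 against 119.9, 136, 155, 183 and 124 CPM (4.07 ± 0.28 (SE), adjusted p = 5e-05), and its binding partner ANXA2 at 26.5 and 28.1 against 265, 341, 242, 256 and 287 CPM (3.33 ± 0.22 (SE), adjusted p = 4e-05).

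The ephrin ligand gene EFNB2 was at 130.4 and 149 against 11.2, 5.98, 10.7, 14.9 and 15.4 CPM (-3.59 ± 0.31 (SE), adjusted p = 0.00014), the receptor gene EPHA2 at 8.64 and 17.1 against 237, 205, 305, 324 and 132 CPM (4.21 ± 0.48 (SE), adjusted p = 0.00056), and the chemokine gene CXCL12, whose receptor CXCR4 rose, at 36.0 and 28.3 against 6.58, 3.25, 3.75, 5.16 and 4.53 CPM (-2.80 ± 0.27 (SE), adjusted p = 0.00025). EPHA2 was higher and EFNB2 and CXCL12 lower in every SOX2-negative library than in either control. HLA-B, which encodes a class I antigen-presenting protein and stands on 6 identifiers of alternate gene copies, was chosen after its values were seen, at 56.2 and 46.7 against 756, 2823, 625, 505 and 808 CPM (adjusted p = 0.0059), with WNT3A 100 replicate 2 the highest. FBLN2, a matrix glycoprotein gene also chosen after its values were seen, was at 30.5 and 27.7 against 901, 1711, 1132, 1091 and 1105 CPM (5.34 ± 0.33 (SE), adjusted p = 3.6e-05). HLA-B lost its call without control replicate 1 (adjusted p = 0.065) and without control replicate 2 (adjusted p = 0.081).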
